A study of Mus musculus with 16 samples.

Results

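The Hox genes of clusters A to D were taken as all probe sets of the mouse array that carry a single gene symbol made of Hoxa, Hoxb, Hoxc or Hoxd and a number, a rule that reads symbols and no measured value. This gave 48 probe sets for 33 genes out of 18194 genes with a single-symbol probe set, while the RefSeq table of the mouse holds 39 Hox genes. The other 6 had no such probe set, and 3 probe sets that carry a Hox symbol beside another symbol were not used here. Of the 33 genes, 22 were read by 1 probe set and 11 by more, up to 4.

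White adipose tissue of the subcutaneous depot (sWAT) and brown adipose tissue from between the shoulder blades (BAT) came from LACA (Laboratory Animal Centre A-strain) mice labelled as male with a body weight of 25 ± 3 g, fed standard chow and left untreated. No age was given. Each tissue had 4 replicates with 2 arrays each, and the mean of both arrays was 1 value, so n = 4 per tissue throughout. The deposited values are log2 signals from which the 16-array median of the probe set has been taken off, hence a value shows how far a sample lies above or below that median and gives no level, and no gene can be called expressed or silent from it.

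Hox genes encode homeodomain transcription factors that give cells their position along the body axis in the embryo. They lie in 4 clusters on different chromosomes and carry paralogue numbers from 1 to 13, so that genes of equal number in different clusters are the closest relatives. Within a cluster the low numbers are active early and toward the head, and the high numbers late and toward the tail. Part of this pattern persists in adult fibroblasts and fat cell precursors, and fat depots are known to differ in it. BAT of this site lies at the level of the upper thorax, while the place along the body at which sWAT was cut out was not given.

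The tissues differed in brown adipocyte markers, in part of the white adipocyte markers and in markers of other tissues. All 8 brown adipocyte markers, Ucp1 among them, were higher in BAT, whose replicates had list means of 1.40 to 2.98 against -2.39 to -1.14 in sWAT, and the lowest BAT value was that of replicate 4. Of 6 white adipocyte markers 3 were lower in BAT and 3, Lep, Adipoq and Agt, were not called. All 14 skeletal muscle markers were higher in BAT (list means 1.98 to 3.73 against -1.91 to -1.54) and all 7 B cell markers were lower (-1.96 to -1.28 against 1.51 to 2.09), as were 7 of 8 T cell markers and 6 of 9 markers of adipose progenitors and fibroblasts. Of these 6, Dpt, Col1a1, Col3a1 and Dcn had overlapping values in the tissues. Over all genes, 21.0% were called higher in BAT and 17.5% lower. BAT replicate 4 stood apart in the progenitor and fibroblast markers, with a list mean of 0.61. It was -1.50 to -0.86 in BAT replicates 1 to 3 and 0.03 to 1.15 in sWAT. The same held for the white adipocyte markers, at 0.55 against -1.29 to -1.01 and -0.07 to 0.56. Xist, an RNA of the inactive X chromosome, stood at 5.74, 6.26 and 6.36 in BAT replicates 1 to 3 and between -0.27 and -0.11 in BAT replicate 4 and the sWAT replicates, which goes against the labelled sex of those BAT samples. In addition, 2 arrays, the first of sWAT replicate 3 and the second of BAT replicate 1, had low 5' signal of the control genes. Their correlation with the other array of the replicate was 0.34 and 0.51, against 0.85 to 0.92 in the other replicates. Both were kept in the replicate means. The part of muscle, lymphoid tissue, progenitor cells or sex in the Hox differences was not tested. In whole tissue, moreover, fewer cells of a type and less RNA per cell cannot be told apart.

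Upon comparing BAT with sWAT, 13 of the 33 Hox genes were higher in BAT and 6 were lower at an adjusted p under 0.05 (limma with Benjamini-Hochberg adjustment over all genes), and 14 were not called. Over all genes tested, 21.0% were called higher and 17.5% lower. The Hox genes had 39.4% higher and 18.2% lower, so the share of lower genes lay near that of the array. The median difference was 0.31 over the Hox genes and 0.15 over all genes on the log2 scale. In each of the 19 called genes the values of the tissues did not overlap, so all 4 replicate pairs differed in the same direction. A call favours genes whose tissues lie apart, and the share without overlap over all called genes was not counted. At the level of probe sets 21 of 48 were higher and 6 lower, against 15.1% and 17.3% of all probe sets. Without replicate 2 of both tissues only 8 Hox genes were higher and 3 lower. Over all genes the calls fell as well, from 3812 to 2338 higher and from 3177 to 2289 lower. The calls of Hoxa4, Hoxa5, Hoxc4, Hoxc5, Hoxc8 and Hoxc10 held in all 16 alternative settings, and those of the other 13 genes were lost in at least 1. The methods' paired t-test over the 4 replicate pairs did not call Hoxa2, Hoxa10, Hoxb2, Hoxb5, Hoxc9, Hoxd3, Hoxd8 and Hoxd10. Over 8 array pairs it lost no Hox call. Below, the paired test of the methods means the 4 replicate pairs unless array pairs are named. With arrays scaled to the 3' probe sets of Gapdh and Actb the calls of Hoxa3, Hoxa7, Hoxa9, Hoxa10, Hoxb4, Hoxb5, Hoxc6, Hoxc9, Hoxd3 and Hoxd10 were lost. Of all genes, the test over 4 replicate pairs called 1830 higher and 1737 lower, and the scaling 1885 and 1886.

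**Figure D1:**
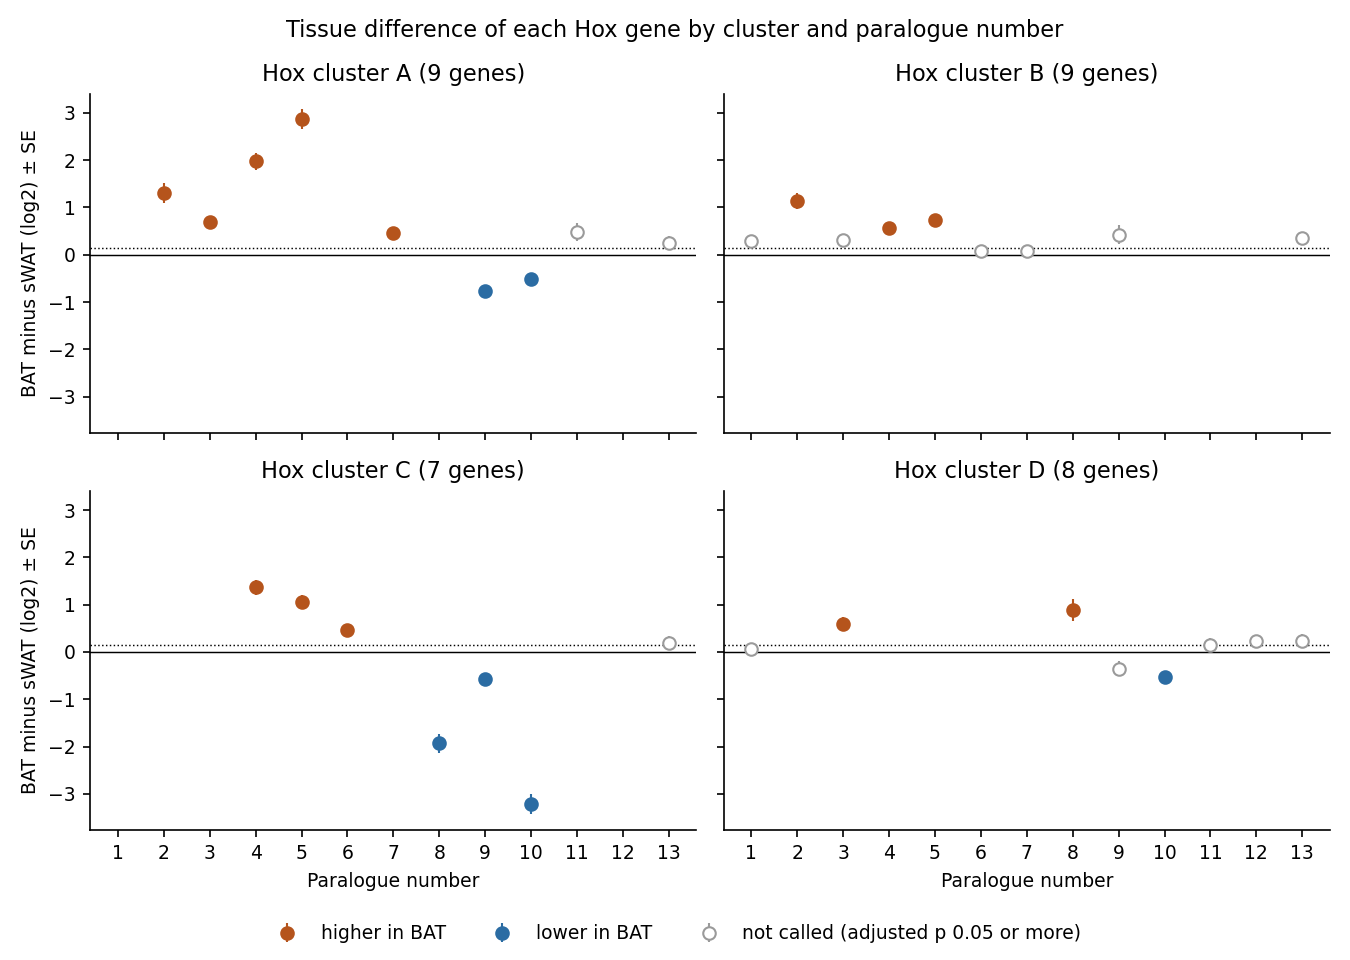
Difference of each Hox gene (BAT minus sWAT, log2, ± SE, 4 replicates per tissue) against its paralogue number, in a panel for each cluster; filled points passed an adjusted p of 0.05, and the dotted line marks the median of all genes, 0.15. The genes higher in BAT have numbers up to 8, the genes lower in BAT have numbers from 8 to 10, and no gene numbered 11 to 13 was called.

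The genes higher in BAT had lower paralogue numbers than those lower in BAT, apart from number 8, which held Hoxd8 higher and Hoxc8 lower. Among the 7 genes numbered 1 to 3, 4 were higher in BAT and 0 lower. Among the 12 genes numbered 4 to 8, 9 were higher and only Hoxc8 was lower. Among the 14 genes numbered 9 to 13, 0 were higher and 5 were lower. The median differences of the 3 classes were 0.59, 0.64 and 0.18, and the last lay near the 0.15 of all genes. By cluster, A had 5 higher and 2 lower of 9 genes, B had 3 and 0 of 9, C had 3 and 3 of 7, and D had 2 and 1 of 8. Of all genes, 21.0% were higher and 17.5% lower, and cluster D, with 25% and 12.5%, lay near these shares. No count of a class or cluster was tested against them. Over the 33 genes Spearman's rho between number and difference was -0.49, with -0.65 in A, -0.18 in B, -0.75 in C and -0.05 in D. These coefficients are descriptions only, since the genes share samples and arrays and are not independent replicates. The difference between classes was not tested, and the counts of single classes moved in some settings, as given in the closing section.

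**Figure D2:**
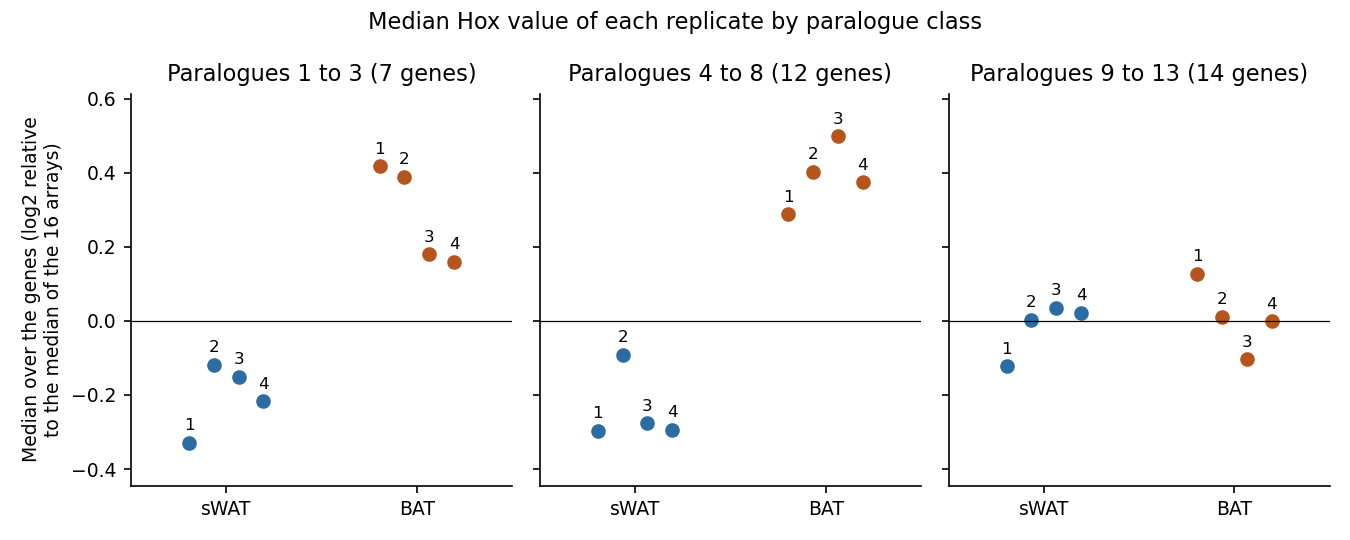
Median over the Hox genes of each paralogue class in every replicate (log2 against the 16-array median); each point is a replicate with its number. The BAT medians lie above all sWAT medians for numbers 1 to 3 (0.16 to 0.42 against -0.33 to -0.12) and 4 to 8 (0.29 to 0.50 against -0.30 to -0.09), and the tissues overlap for numbers 9 to 13.

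The largest rise in BAT was that of Hoxa5, which patterns the neck and upper thorax and the lung. Its sWAT values were -1.30, -1.37, -1.02 and -1.31, and its BAT values were 2.14, 1.87, 1.52 and 0.95. Every BAT value lay above every sWAT value, and replicate 4 was the lowest in BAT. The difference was 2.87 ± 0.21 (SE), or 7.31-fold, with an adjusted p of 1.3e-04, and both probe sets gave nearly the same value, 2.82 and 2.92. Hoxa4, its neighbour in the cluster and a gene of neck vertebrae, followed. Hoxa4 values were -0.53, -0.65, -0.65 and -0.74 in sWAT and 1.11, 1.92, 1.42 and 0.86 in BAT. The tissues were again well apart, and replicate 2 was the highest in BAT. The difference was 1.97 ± 0.18, or 3.92-fold, with an adjusted p of 3.1e-04, while its probe sets gave 1.21 and 2.73. Hoxa7, a gene of the thoracic region read by 1 probe set, was also higher by 0.46 ± 0.11 (adjusted p = 0.019), a call that was lost without replicate 2 (0.48, adjusted p = 0.081) or without replicate 4 (0.44, adjusted p = 0.073). With the second arrays alone Hoxa7 differed by 0.20 only (adjusted p = 0.31), and over all settings by 0.20 to 0.72.

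In cluster C the genes numbered 4 to 6 were higher in BAT. Hoxc4, which together with other genes of its number shapes neck vertebrae, had values of -1.13, -0.66, -0.52 and -1.08 in sWAT and of 0.44, 0.37, 0.61 and 0.66 in BAT. The BAT values were tight and all above those of sWAT. The difference was 1.36 ± 0.16, or 2.57-fold, with an adjusted p of 7.0e-04. Hoxc5, active in the neck region of the spinal cord, had values of -0.37, -0.31, -0.36 and -0.45 in sWAT and of 0.55, 0.46, 1.06 and 0.65 in BAT. Here replicate 3 was the highest in BAT and the sWAT values were close to each other. The difference was 1.05 ± 0.14, or 2.08-fold, with an adjusted p of 0.0015, and its 3 probe sets gave 0.59, 0.80 and 1.78, all called higher. Hoxc6, a gene of forelimb motor neurons, rose by 0.46 ± 0.11 (adjusted p = 0.019). The Hoxc6 values ran from -0.32 to -0.15 in sWAT and from 0.22 to 0.29 in BAT and did not overlap. Without replicate 1, 2 or 4 the difference was 0.40, 0.47 or 0.47 and the call was lost, with adjusted p from 0.055 to 0.082.

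In clusters B and D some of the middle numbers rose as well, none by as much as Hoxa5, Hoxa4, Hoxc4 or Hoxc5. Hoxb5, which takes part in placing the shoulder girdle, had values of -0.62, -0.07, -0.43 and -0.67 in sWAT and of 0.31, 0.54, 0.00 and 0.27 in BAT. The highest sWAT value, of replicate 2, came close to the lowest BAT value, of replicate 3, without reaching it. The difference was 0.73 ± 0.14 (adjusted p = 0.0058), and in the paired test of the methods the adjusted p was 0.0502. Hoxb4, known for its action in blood stem cells, rose by 0.56 ± 0.12 (adjusted p = 0.010). Hoxb4 values ran from -0.25 to -0.07 in sWAT and from 0.28 to 0.58 in BAT, and without replicate 2 the difference was 0.57 with an adjusted p of 0.052. Hoxb6 (0.09, adjusted p = 0.57) and Hoxb7 (0.09, adjusted p = 0.55) were not called. Hoxd8, a trunk gene, had values of -0.16, -0.04, -0.42 and -0.40 in sWAT and of -0.03, 0.64, 0.74 and 1.17 in BAT. BAT replicate 1 lay just above the highest sWAT value and replicate 4 far above it. The difference of 0.88 ± 0.23 (adjusted p = 0.023) was not called without replicate 2, 3 or 4 (0.95, 0.79 and 0.65, adjusted p from 0.051 to 0.068).

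**Figure D3:**
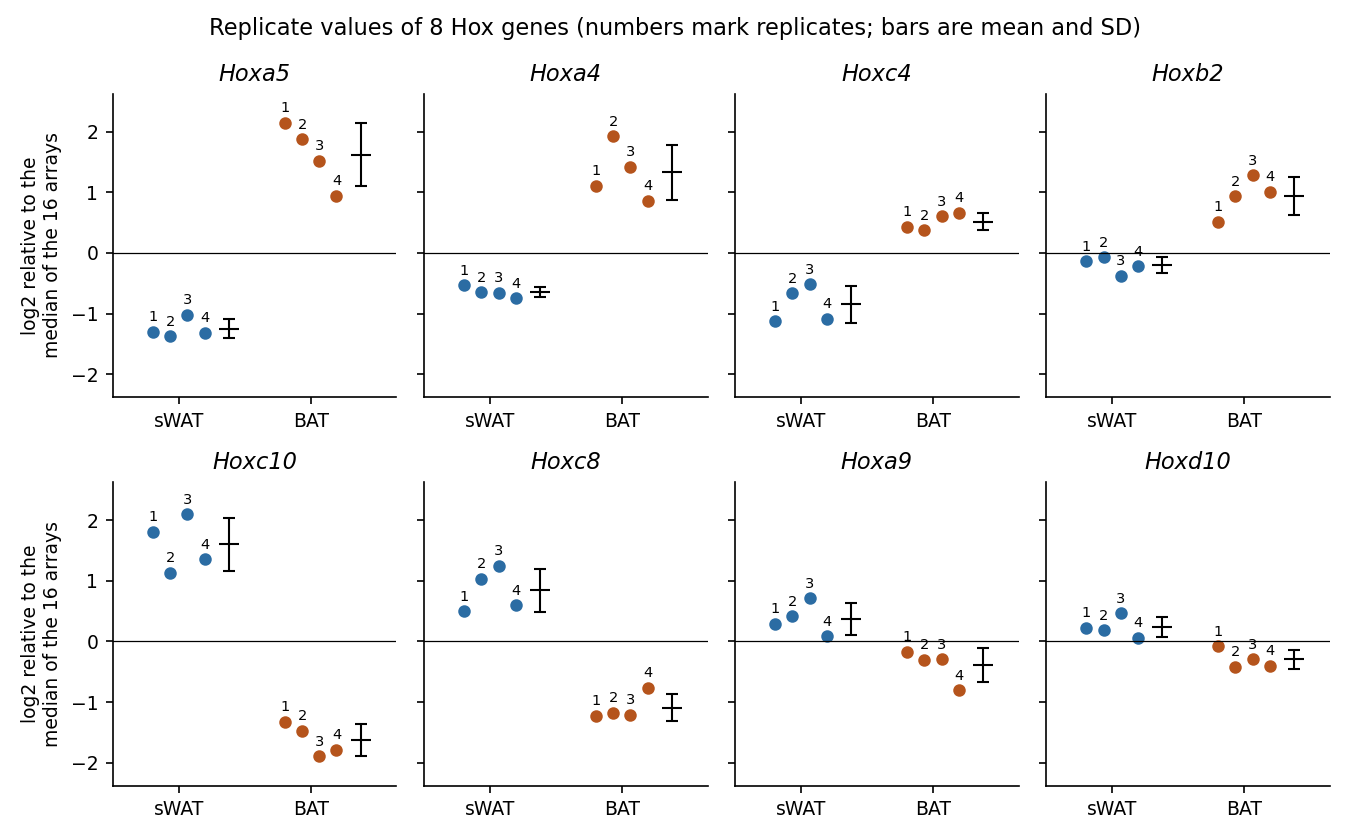
Replicate values of 8 Hox genes in sWAT and BAT (log2 against the 16-array median), with the mean and SD of the 4 replicates of each tissue as bars. Hoxa5, Hoxa4, Hoxc4 and Hoxb2 lie higher in BAT and Hoxc10, Hoxc8, Hoxa9 and Hoxd10 lower, with no overlap between the tissues in any of them.

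Among the lowest numbers, which act in the hindbrain and the pharyngeal arches, Hoxa2 and Hoxb2 changed the most. Hoxa2, needed for the identity of the second pharyngeal arch, had values of -0.67, -0.48, -0.32 and -0.60 in sWAT and of 1.08, 1.33, 0.55 and 0.20 in BAT. BAT replicates 1 and 2 stood well above replicates 3 and 4, and all 4 were above sWAT. The difference was 1.31 ± 0.21, or 2.48-fold, with an adjusted p of 0.0030. Hoxb2, which acts in facial motor neurons, had values of -0.14, -0.07, -0.37 and -0.22 in sWAT and of 0.52, 0.94, 1.28 and 1.01 in BAT. Here replicate 1 was the lowest of BAT. The difference was 1.14 ± 0.17, or 2.20-fold, with an adjusted p of 0.0025. With the paired test of the methods over the 4 replicate pairs neither gene passed, at adjusted p of 0.067 for Hoxa2 and 0.056 for Hoxb2. Over 8 array pairs both calls held.

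The genes numbered 3 changed less. Hoxd3, which patterns the first neck vertebra, rose by 0.59 ± 0.15 (adjusted p = 0.018), from -0.40 to -0.12 in sWAT against 0.18 to 0.58 in BAT. The call was lost without replicate 1 (0.46, adjusted p = 0.053) or without replicate 2 (0.57, adjusted p = 0.079). Hoxa3, which is required for the thymus and parathyroid glands, rose by 0.69 ± 0.12 (adjusted p = 0.0039). Its 4 probe sets ranged from 0.12 to 1.59, the largest was of a type that can match several transcripts, and without probe sets of that type the gene differed by 0.39. Hoxb3 (0.31, adjusted p = 0.11), Hoxb1 (0.29, adjusted p = 0.080) and Hoxd1 (0.06, adjusted p = 0.69) were not called.

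The promoters of 19 of the 33 genes, 21 in all, were in the RefSeq table of the GRCm38.p6 build. Of the genes higher in BAT, Hoxa5 and Hoxc4 are shown, which had the largest differences among the genes given in full with a promoter there. The sequences are the 250 bases before the annotated start, 5' to 3' on the strand of the gene, from chr6:52204588-52204837 on the minus strand for Hoxa5 and chr15:103034145-103034394 on the plus strand for Hoxc4. Capitals mark matches on either strand to CCAAT (the CCAAT box), GGGCGG (the GC box), TATAAA (the TATA box), TGATNNAT (a motif bound by Pbx and Hox proteins together) or AGGTCA (the unit from which sites of nuclear receptors are built), and no match overlaps another.
Hoxa5: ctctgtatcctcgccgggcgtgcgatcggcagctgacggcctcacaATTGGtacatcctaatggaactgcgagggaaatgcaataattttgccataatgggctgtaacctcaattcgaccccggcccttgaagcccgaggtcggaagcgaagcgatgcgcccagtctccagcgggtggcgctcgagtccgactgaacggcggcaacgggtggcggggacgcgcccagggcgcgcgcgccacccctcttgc
Hoxc4: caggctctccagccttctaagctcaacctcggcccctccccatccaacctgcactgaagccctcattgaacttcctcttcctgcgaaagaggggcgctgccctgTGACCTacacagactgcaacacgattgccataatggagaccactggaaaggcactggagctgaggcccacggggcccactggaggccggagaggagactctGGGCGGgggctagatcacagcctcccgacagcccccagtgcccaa
Hoxa5 held a CCAAT match and 28 CpG dinucleotides, and Hoxc4 held an AGGTCA and a GGGCGG match and 8 CpG dinucleotides. The AGGTCA match was found in 4 of the 8 promoters of genes higher in BAT and in 14.02% of all 32851 promoters, CCAAT in 4 of the 8 and in 33.8%, GGGCGG in 1 and 32.7%, TGATNNAT in 1 and 7.68%, and TATAAA in 0 and 12.4%. These are matches of letters in a short window and no measurement of binding.

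The largest fall in BAT was that of Hoxc10, a gene of the lumbar region and the hind limb. Its sWAT values were 1.81, 1.13, 2.10 and 1.35, and its BAT values were -1.32, -1.47, -1.89 and -1.78. The lowest sWAT value was far above the highest BAT value. The difference was -3.22 ± 0.22, or 9.30-fold lower in BAT, with an adjusted p of 1.0e-04, and was the largest of any Hox gene in either direction. Hoxc8, which acts in the thoracic region and forelimb motor neurons, had values of 0.50, 1.03, 1.25 and 0.60 in sWAT and of -1.22, -1.17, -1.20 and -0.76 in BAT. BAT replicate 4 stood above the others and still below all of sWAT. The difference was -1.94 ± 0.19, or 3.83-fold lower, with an adjusted p of 4.1e-04. Hoxc9, which sets the thoracic motor columns and lies between both on the chromosome, differed far less, by -0.57 ± 0.13 (adjusted p = 0.013). The Hoxc9 values ran from 0.07 to 0.48 in sWAT and from -0.35 to -0.15 in BAT. Without replicate 2 the difference was -0.56 with an adjusted p of 0.065. Each of these 3 genes was read by 1 probe set.

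In clusters A and D the genes lower in BAT were Hoxa9, Hoxa10 and Hoxd10. Hoxa9, a gene of the posterior trunk that also acts in blood stem cells, had values of 0.29, 0.42, 0.71 and 0.08 in sWAT and of -0.17, -0.30, -0.29 and -0.80 in BAT. The tissues did not overlap, and replicate 4 was the lowest in both. The difference was -0.77 ± 0.13 (adjusted p = 0.0043), but it was the mean of a probe set at -1.59 ± 0.14, called lower, and another at 0.06 ± 0.17, not called. Hoxa10, which acts in the lumbar region and the uterus, differed by -0.51 ± 0.14 (adjusted p = 0.026), again as the mean of unlike probe sets at -1.17 ± 0.15 and 0.14 ± 0.16. Where in the transcripts these probe sets lie was not examined here. Hoxa10 values ran from 0.15 to 0.42 in sWAT and from -0.47 to -0.01 in BAT, and without replicate 2, 3 or 4 the call was lost at differences of -0.53, -0.43 and -0.46. With the second arrays alone Hoxa10 differed by -0.30 (adjusted p = 0.11). Hoxd10, a gene of lumbar motor neurons and the limb, had values of 0.23, 0.19, 0.47 and 0.07 in sWAT and of -0.08, -0.42, -0.29 and -0.40 in BAT. The gap between the tissues was narrow, between sWAT replicate 4 and BAT replicate 1. The difference was -0.53 ± 0.13 (adjusted p = 0.015), and without replicate 2 it was -0.51 with an adjusted p of 0.081.

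**Figure D4:**
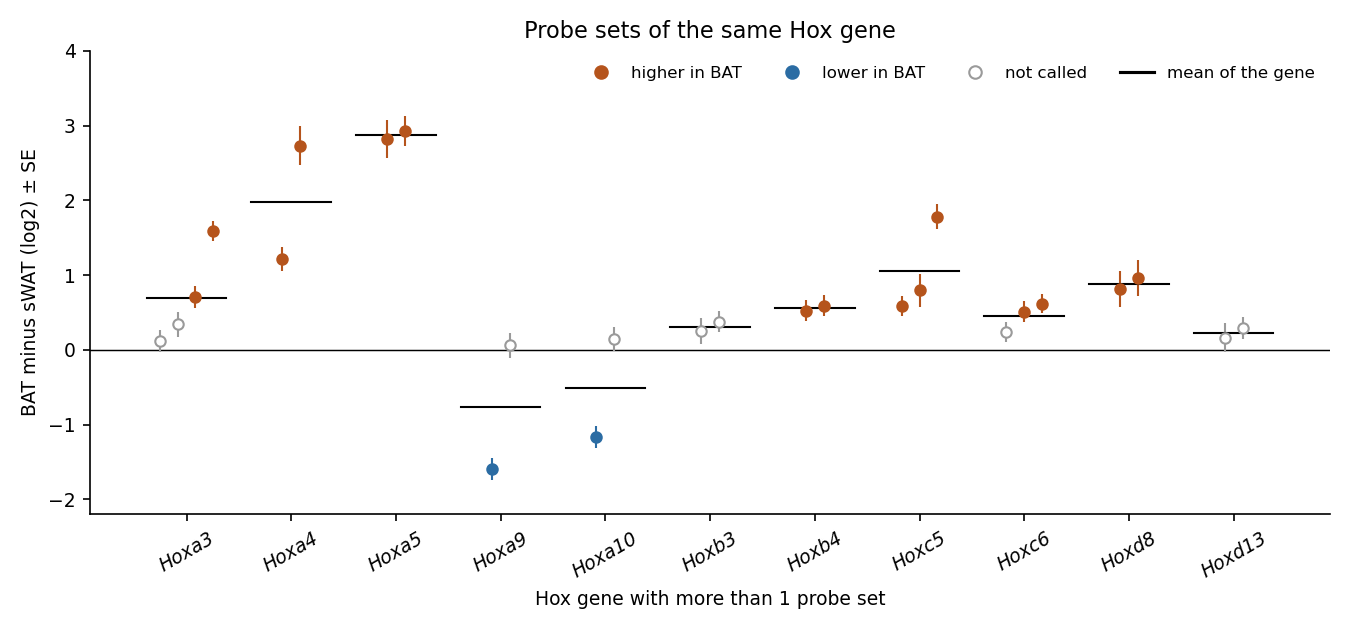
Difference of each probe set (BAT minus sWAT, log2, ± SE) for the 11 Hox genes with more than 1 probe set, with the mean of the gene as a line; filled points passed an adjusted p of 0.05 over all probe sets. The probe sets of Hoxa5 lie together, those of Hoxa9 (-1.59 and 0.06) and Hoxa10 (-1.17 and 0.14) lie apart, and no gene has probe sets called in opposite directions.

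Of the genes lower in BAT, the promoters of Hoxa9 and Hoxd10, chosen by the same rule, are shown for comparison, with the same motifs in capitals. They come from chr6:52227371-52227620 on the minus strand for Hoxa9 and chr2:74691641-74691890 on the plus strand for Hoxd10. For Hoxc8, Hoxc9 and Hoxc10 no promoter is printed.
Hoxa9: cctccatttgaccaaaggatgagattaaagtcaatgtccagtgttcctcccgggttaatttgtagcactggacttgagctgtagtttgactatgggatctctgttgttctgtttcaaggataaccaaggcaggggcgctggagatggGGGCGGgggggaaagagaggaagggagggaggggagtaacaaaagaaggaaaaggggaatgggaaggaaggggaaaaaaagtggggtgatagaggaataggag
Hoxd10: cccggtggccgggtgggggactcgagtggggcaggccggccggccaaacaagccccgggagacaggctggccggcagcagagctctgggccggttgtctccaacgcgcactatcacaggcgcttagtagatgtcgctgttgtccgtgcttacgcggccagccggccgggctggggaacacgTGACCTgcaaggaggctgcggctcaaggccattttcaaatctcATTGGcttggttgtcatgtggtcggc
Hoxa9 held a GGGCGG match and 3 CpG dinucleotides, and Hoxd10 held an AGGTCA and a CCAAT match and 20 CpG dinucleotides. Over the 21 Hox promoters the median was 13 CpG dinucleotides, with a range of 2 to 35, against a median of 6 over all promoters. AGGTCA was found in 5 of the 21, CCAAT in 11, GGGCGG in 8, TGATNNAT in 3 and TATAAA in 2. Of the 4 promoters of genes lower in BAT, AGGTCA was found in 1, CCAAT in 2, GGGCGG in 2, TGATNNAT in 0 and TATAAA in 1. The CpG counts ran from 6 to 28 in the 8 promoters of genes higher in BAT and from 3 to 20 in the 4 of genes lower in BAT.

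The remaining genes with high numbers were not called. Hoxd9 was the only one of them with a lower mean in BAT (-0.35, adjusted p = 0.13). Its sWAT values were 0.56, 0.57, -0.19 and 0.15, so that replicates 1 and 2 stood above the others, and its BAT values were -0.12, -0.07, -0.10 and -0.04. It was called lower without replicate 3 (-0.50), with the second arrays alone (-0.49) and with both arrays of low 5' signal left out (-0.44). The genes at the tail end, Hoxa11, Hoxa13, Hoxb13, Hoxc13, Hoxd11, Hoxd12 and Hoxd13, had differences from 0.15 (Hoxd11) to 0.48 (Hoxa11) with adjusted p from 0.085 to 0.41, and Hoxb9 had 0.42 with an adjusted p of 0.13. Since the values carry no level, whether these genes were measured above background is not known.

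Hox proteins bind DNA together with TALE homeodomain cofactors. Of 9 such genes measured, 2 were higher in BAT and 1 lower, against 21.0% and 17.5% of all genes, with a median difference of 0.09. Meis1 was higher by 0.73 ± 0.16 (adjusted p = 0.013) and Meis2 by 0.63 ± 0.16 (adjusted p = 0.021). Pknox1 was lower, by -0.80 ± 0.25 (adjusted p = 0.040), with overlapping values in the tissues. All 3 calls were lost without replicate 2 (0.66, 0.68 and -0.75), and those of Meis2 and Pknox1 also without replicate 1 (0.54 and -0.51) or without replicate 4 (0.52 and -0.89).

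Polycomb proteins keep Hox genes silent, and trithorax proteins keep them active. Of 26 Polycomb genes, 1 was higher and 8 were lower in BAT, against 21.0% and 17.5% of all genes, with a median of -0.22. The count of lower genes was 13 without the replicate block or with each array entered singly, and 4 with the 3' scaling. Over all genes it was 3177 in the main fit, 3481 without the block, 3720 with single arrays and 1886 with the scaling. Ezh2, the enzyme that places the repressive methyl mark on histone H3, had values of 0.99, 0.20, 0.95 and 0.47 in sWAT and of -0.72, -0.67, -0.53 and -1.49 in BAT, a difference of -1.51 ± 0.19 (adjusted p = 0.0010). Every BAT value was below every sWAT value. Pcgf6, a subunit of the other Polycomb complex, was lower by -1.54 ± 0.15 (adjusted p = 3.7e-04), and Yaf2, a partner in the same kind of complex, was higher by 0.87 ± 0.12 (adjusted p = 0.0013). Of 13 trithorax and H3K27 demethylase genes, 1 was higher and 3 were lower, against 21.0% and 17.5% of all genes, with a median of -0.18. Psip1, which ties the Kmt2a complex to chromatin, was lower by -2.18 ± 0.20 (adjusted p = 3.0e-04), and Kmt2a, a methyltransferase of active Hox genes, by -1.50 ± 0.30 (adjusted p = 0.0078, and 0.11 in the paired test of the methods). Dpy30, a core subunit of these methyltransferases, was higher by 0.69 ± 0.14 (adjusted p = 0.0095), a call that was lost without replicate 2 (0.57). The B and T cell markers moved in the direction of the lower genes of both lists, and their part was not tested.

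Retinoic acid, Cdx proteins and Gdf11 switch Hox genes on in the embryo. Of 16 genes of these inputs, 3 were higher and 1 lower in BAT, against 21.0% and 17.5% of all genes, with a median of 0.26. Rarb, a retinoic acid receptor whose own gene responds to retinoic acid, had values of -0.99, -1.27, -1.16 and -1.40 in sWAT and of 1.17, 1.58, 0.998 and 1.25 in BAT. The values were tight in both tissues and far apart. The difference was 2.46 ± 0.16, or 5.49-fold, with an adjusted p of 8.4e-05. Acvr2b, a receptor for Gdf11 and related ligands, was higher by 0.47 ± 0.12 (adjusted p = 0.018), and Cyp26b1, which breaks down retinoic acid, was lower by -0.60 ± 0.14 (adjusted p = 0.016). Without replicate 2 the calls of Acvr2b (0.45) and Cyp26b1 (-0.52) were lost, and likewise without replicate 4 (0.43 and -0.52). The other retinoic acid receptors, Rara (0.13, adjusted p = 0.38) and Rarg (0.37, adjusted p = 0.067), and Cdx1, Cdx2 and Cdx4 (0.14 to 0.32, adjusted p from 0.11 to 0.36) were not called.

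Of 28 other homeobox and T-box genes of body position, 11 were higher and 3 lower in BAT, against 21.0% and 17.5% of all genes, with a median of 0.37. The count of higher genes was 4, 3 and 4 without replicate 1, 2 and 4. The paired test of the methods gave 4 higher and 0 lower. Over all genes calls were fewer in these settings as well. Zic1, a zinc finger factor of the dorsal trunk included in this list, was higher by 4.82 ± 0.33, or 28.3-fold (adjusted p = 1.0e-04), with all sWAT values between -2.43 and -1.88 and BAT values of 3.02, 3.51, 2.51 and 1.70. Irx5 was higher by 1.57 ± 0.16 (adjusted p = 4.1e-04). Shox2, a factor of limb bones, was lower by -1.04 ± 0.19 (adjusted p = 0.0051), and Emx2, which acts in the urogenital system and the shoulder blade, by -0.76 ± 0.15 (adjusted p = 0.0065). In the paired test of the methods neither passed, at adjusted p of 0.075 for Shox2 and 0.060 for Emx2.

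**Figure D5:**
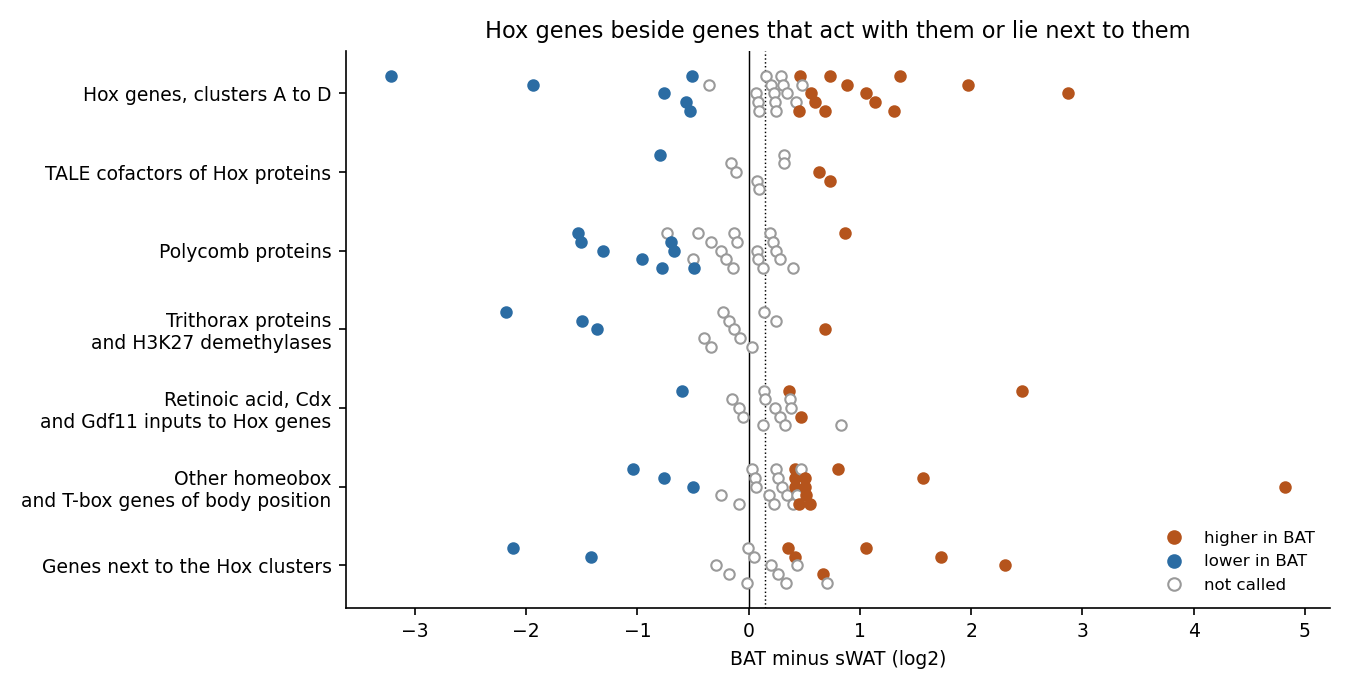
Difference of each gene (BAT minus sWAT, log2) for the Hox genes and 6 lists of genes that act with them, regulate them or lie beside them; filled points passed an adjusted p of 0.05, and the dotted line is the median of all genes, 0.15. The Hox genes spread from -3.22 to 2.87, most Polycomb and trithorax genes that were called lie below 0, and Zic1 at 4.82 is the highest point.

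The genes just outside the clusters had no common direction. Beside the low numbers, Skap2 next to cluster A was not called (0.26, adjusted p = 0.11), and Skap1 next to cluster B, an adaptor of T cells, was lower in BAT by -2.12 ± 0.11 (adjusted p = 5.0e-05). Smug1 next to cluster C, a DNA repair enzyme, was higher by 0.67 ± 0.13 (adjusted p = 0.0065). Mtx2 next to cluster D, a protein of mitochondrial import, was higher by 2.31 ± 0.14, or 4.95-fold (adjusted p = 7.4e-05), while the nearest Hox genes measured there, Hoxd1 and Hoxd3, differed by 0.06 and 0.59. Beside the high numbers, Evx1 (0.44, adjusted p = 0.063) and Ttll6 (0.34, adjusted p = 0.20) were not called, and Calcoco1 (0.36, adjusted p = 0.040) and Evx2 (0.42, adjusted p = 0.042) were higher with overlapping values. Evx2 lost the call without replicate 1, 2 or 4 (0.33, 0.46 and 0.39), and Calcoco1 lost it whenever 1 of the 4 replicates was left out (0.34 to 0.38). Over the 18 neighbours measured, 6 were higher and 2 lower, against 21.0% and 17.5% of all genes, with a median of 0.30; Hibadh, an enzyme of valine breakdown near cluster A, was higher by 1.73 ± 0.13 (adjusted p = 1.5e-04), and Hnrnpa1, an RNA-binding protein near cluster C, was lower by -1.42 ± 0.13 (adjusted p = 3.4e-04).

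Of 16 listed non-coding RNAs of the clusters 3 were measured. Hoxb5os, transcribed from the strand opposite to Hoxb5, was higher in BAT by 0.74 ± 0.14 (adjusted p = 0.0067), beside 0.73 for Hoxb5 itself. Hoxa11os (0.22, adjusted p = 0.18) and Hoxd3os1 (0.24, adjusted p = 0.23) were not called, beside 0.48 for Hoxa11 and 0.59 for Hoxd3.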

How the data were processed

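Total RNA of sWAT and BAT was hybridized to Affymetrix mouse genome arrays, 16 in all, with 4 replicates per tissue and 2 arrays per replicate. In GeneSpring the authors applied RMA and quantile normalization and then centred every probe set on its median of all arrays, so the deposited values are log2 differences from that median and hold no intensity level. A filter on dim probe sets could therefore not be set, and precision is limited by the 4 replicates per tissue. Of 45101 probe sets 34958 carried 1 gene symbol in the platform annotation, 932 several and 9211 none.

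The arrays of a replicate were averaged, and single-symbol probe sets were averaged by gene. BAT minus sWAT was fitted for 18194 genes, and separately for all probe sets, by limma 3.58.1 in R 4.3.3 (lmFit, then eBayes), with a block for the replicate number, two-sided, with Benjamini-Hochberg adjustment over all features. The script was tested on simulated data. The methods take both tissues from each mouse and use a paired test, while the labels do not tie a number to a mouse, so p-values measure the spread between these samples. Xist and the Y-linked genes differed between sWAT and BAT of equal number for numbers 1 to 3, hence equal numbers cannot be taken as 1 mouse there, and a replicate pair means equal numbers only. A gene was called at an adjusted p under 0.05. Genes given in full were, among Hox genes called with the same sign in all 4 pairs, the 3 with the largest difference in each direction in each cluster, and the 2 largest called in each direction in every other list; other Hox genes, the nearest neighbours of the clusters and further members of the lists are given with the difference and adjusted p. The rule for the members reads symbols alone, but the choice of the Hox genes as a subject and of the lists was made with earlier results of these data known. Errors given with a difference are its standard errors from the fit. Motifs were searched on both strands of RefSeq promoters (GRCm38.p6), and no genome sequence was used. Figures were drawn with matplotlib 3.10.9 (Python 3.11.15).

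Other settings were no block, only the first or only the second array of a replicate, and each array singly. Further settings left out the 2 arrays of low 5' signal or each replicate. The paired t-test of the methods was run over replicate or array pairs. Other scalings and gene summaries and a robust variance prior were used as well. At a fold of 2 the paired t-test over 8 array pairs called 2712 probe sets higher and 4301 lower, near the counts that the authors report. Over 4 replicate pairs it called 1266 and 2122.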

Additional observations from a re-analysis of the deposited data

Results flagged for a closer look

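Among 66 groups of 4 replicate values, a stray replicate was looked for in each by the gap to its nearest neighbour as a share of the whole range of the group. In 2 of the 66 groups the gap passed the limit set for 4 values. This share is no larger than the about 5% of groups that chance alone flags. In Hoxa3 the value of BAT replicate 4 was 0.11 while the others lay between 0.39 and 0.42, a gap of 0.908 of the range. In Hoxc8 BAT replicate 4 stood at -0.76 and the others between -1.22 and -1.17, a gap of 0.894 of the range. In both genes replicate 4 was the BAT value nearest to sWAT. Other called Hox genes differed in this. Replicate 4 was the nearest in Hoxa5 (0.95) and Hoxa4 (0.86) as well, and the farthest in Hoxd8 (1.17), Hoxc4 (0.66) and Hoxa9 (-0.80). In this replicate the list mean of the brown adipocyte markers was 1.40, against 2.92 to 2.98 in BAT replicates 1 to 3, and Xist was at -0.26. The list means of the white adipocyte and the progenitor and fibroblast markers were 0.55 and 0.61 in it, within the range of sWAT, against -1.29 to -1.01 and -1.50 to -0.86 in the other BAT replicates. The part of these differences was not tested.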

How the results depend on the processing

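No called Hox gene changed direction in any of the 16 alternatives. Same-numbered sWAT and BAT replicates did not deviate together from their tissue means (r = -0.15, 0.08, -0.34 and 0.26 for numbers 1 to 4), and a sWAT replicate correlated best with the BAT replicate of its own number only for number 4. Without the replicate block 15 Hox genes were higher and 6 lower, with 5 higher in cluster B and 1 (Hoxb13) among numbers 9 to 13, and no call was lost. Leaving out each replicate in turn gave 2338 to 3697 of all genes higher and 2289 to 3069 lower, against 3812 and 3177 in the main fit. It gave 8 to 12 Hox genes higher and 3 to 6 lower, and 11 to 16 Hox probe sets higher. By class the higher genes ranged from 5 to 8 for numbers 4 to 8 and from 0 to 1 in cluster D, and the lower genes from 1 to 2 in cluster A, from 0 to 2 in cluster D and from 2 to 5 for numbers 9 to 13. The paired t-test of the methods over 4 replicate pairs gave 1830 of all genes higher and 1737 lower. Of the Hox genes it gave 8 higher and 3 lower, and of the Hox probe sets 10 higher. The higher genes were 1 in cluster B, 0 in D and 1 among numbers 1 to 3. The lower genes were 1 in A, 0 in D and 2 among numbers 9 to 13. Over 8 array pairs, which takes arrays of a replicate as independent, no Hox call was lost. There 6 Hox genes were higher in cluster B and 3 among numbers 9 to 13. With each array entered singly these counts were 7 and 4. Scaled to the 3' probe sets of Gapdh and Actb, 7 genes and 10 probe sets were higher and 2 genes lower, with 3 higher in A, 1 in B, 1 in D, 2 among numbers 1 to 3 and 5 among numbers 4 to 8, and with 0 lower in A, 0 in D and 1 among numbers 9 to 13. Under this scaling 1 of the homeobox and T-box genes of body position was lower. Over all genes 1885 were then higher and 1886 lower, and the median standard error rose from 0.141 to 0.313. With the median of each array subtracted 1 gene was higher in cluster D, since Hoxd8 (0.82) was not called. The second arrays alone gave 1 gene lower in A and 2 in D. Without the arrays of low 5' signal 5 genes were higher in cluster B, 1 among numbers 9 to 13 (Hoxa11) and 2 lower in D. Without probe sets of the types that can match several transcripts the median of numbers 1 to 3 was 0.39 in place of 0.59. All other counts by class and all medians stayed within 1.5 times or the spread of the replicates. Unless stated, the cause of a change was not tested.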
